A study of Mus musculus with 12 samples.

Results

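Palmitate was compared with vehicle in cultured mouse pancreatic islets that received no C3a, over all genes, with most attention to pathways other than the stress response and fatty acid oxidation. Islets are the endocrine clusters of the pancreas, in which insulin-secreting beta cells make up most of the cells. The comparison uses 6 of the 12 RNA sequencing libraries of the series, 3 treated with vehicle and 3 with palmitate, a saturated fatty acid used to load and stress beta cells. The other 6 libraries received the same treatments together with C3a, the complement fragment that acts on the receptor C3ar1. All islets came from wild-type male mice aged 10 to 12 weeks and were cultured in lots of about 120 islets. The dose of palmitate and the length of the treatment are not in the labels. Nor do they state if replicates were separate animals or cultures; each p-value therefore reflects the scatter of these libraries alone.

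Beta cells sense glucose by taking it up, phosphorylating it and oxidising it in mitochondria, and the resulting rise of ATP closes potassium channels and opens calcium channels. Calcium triggers the fusion of secretory granules, and receptors coupled to cAMP, such as that of the hormone GLP-1, amplify this release. A beta cell makes very large amounts of one secreted protein, so its ribosomes, endoplasmic reticulum, granules and lysosomes work as one production and disposal line. Most gene groups below are parts of this line.

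Summed counts ran from 24408023 to 49375454 per library, with both libraries numbered 1 (sequencing batch 1) shallower than the 4 of batch 2. Hormone transcripts dominated every library, with Ins2, the main mouse insulin gene, at 112690, 89440 and 88166 CPM with vehicle and 87481, 86243 and 94851 CPM with palmitate. CPM is the count per library size in its usual unit, scaled by TMM, edgeR's correction for library composition. Digestive enzyme genes of acinar cells were also present, with a summed level of 4085, 5410.0 and 3201 CPM in vehicle replicates 1, 2 and 3 and 5704, 3950.0 and 4579 CPM in palmitate, and 0 of 22 were called in either direction. Sums ranged widely within both groups. Because whole islets were sequenced, fewer cells of a type and less RNA per cell cannot be told apart.

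Of 15794 genes tested, 4005 (25.4%) passed edgeR's quasi-likelihood test at an adjusted p (Benjamini-Hochberg) below 0.05 and are named called genes. Of all genes tested, 2112 (13.4%) were higher in palmitate and 1893 (12.0%) were lower. Most changes were small: the median log2 fold change was 0.322 among genes called higher and -0.347 among those called lower, and 258 calls reached a 2-fold change (155 higher, 103 lower). Over all genes tested the median was -0.015. The 3 palmitate libraries and the 3 vehicle libraries did not overlap for 3148 of the called genes. Among all genes tested they did not overlap for 4703 (29.8%). Genes named below were mostly picked by small p or large change, which favours groups without overlap. Their lack of overlap is therefore no separate support. Leaving out vehicle replicate 3 or palmitate replicate 1 lowered the number called lower to 1259 and 1229. Within batch 2 alone, with 2 libraries a group, 2058 genes were called, and 97.6% of those had the same sign in batch 1, where 1 library a group allows no test. The same-sign share over all genes tested is not given here.

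**Figure D1:**
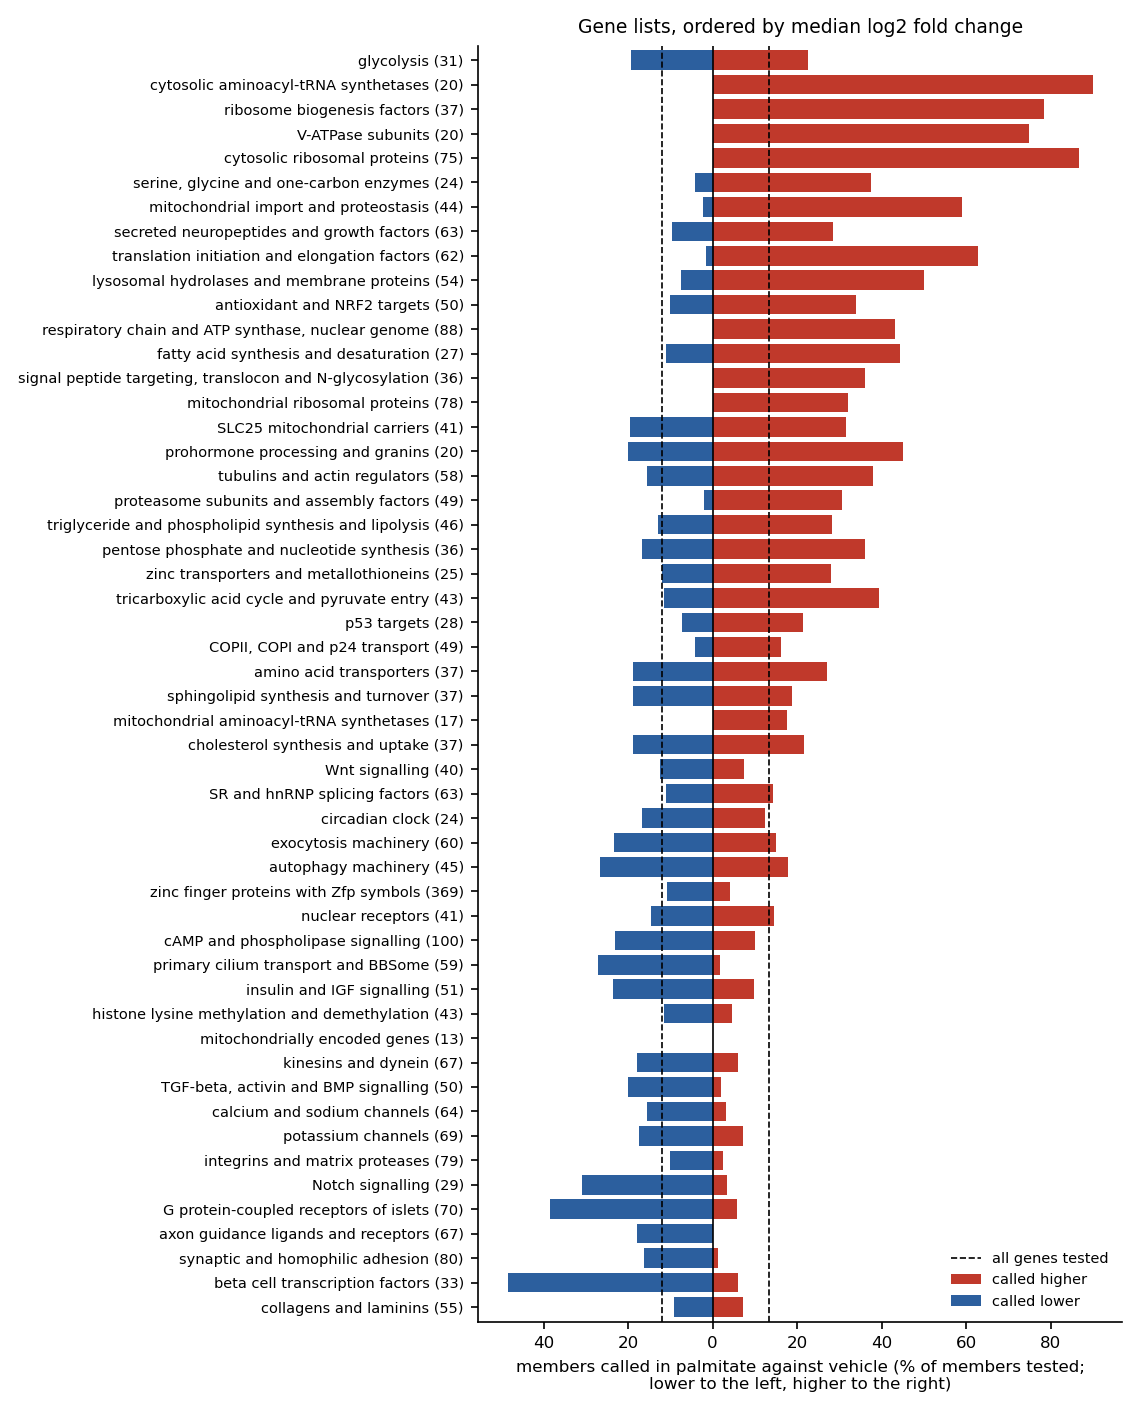
Share of the members of each gene list called higher (red, to the right) or lower (blue, to the left) in palmitate, in percent of the members tested, whose number is in brackets. Lists are ordered by median log2 fold change and the dashed lines are the shares over all genes tested, 13.4% higher and 12.0% lower; protein synthesis and V-ATPase lists lie near the top and beta cell transcription factors and receptors near the bottom.

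Genes of glucose uptake and beta cell identity were among those lower in palmitate. Slc2a2, which encodes the glucose transporter GLUT2, was at 561, 516 and 522 CPM with vehicle and 243, 331 and 309 CPM with palmitate. Every palmitate library lay below every vehicle library (log2 fold change -0.87 ± 0.12, edgeR adjusted p = 5.2e-04). Pfkfb2, which makes the activator of phosphofructokinase, also fell (log2 fold change -0.55 ± 0.08, edgeR adjusted p = 4.2e-04). Mlxipl encodes ChREBP, the glucose-responsive transcription factor, and was at 173, 186 and 179 CPM with vehicle and 68.5, 86.3 and 82 CPM with palmitate, again with no overlap (log2 fold change -1.19 ± 0.09, edgeR adjusted p = 9.4e-06).

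Of the beta cell transcription factors, 2 of 33 members tested were called higher and 16 lower (median log2 fold change -0.24). The lower count was 10 on leaving out vehicle replicate 3 and 10 on leaving out palmitate replicate 1. Pdx1, the master regulator of pancreas development and insulin transcription, was at 259, 356 and 346 CPM with vehicle and 174, 262 and 236 CPM with palmitate (log2 fold change -0.52 ± 0.06, edgeR adjusted p = 9.3e-05). Its groups overlapped across batches, since both libraries numbered 1 were low, and within each batch every palmitate library was below every vehicle library. The related factors Myt1 (-0.48 ± 0.07) and Mnx1 (-0.33 ± 0.06) were lower as well, and Etv1 was higher (0.43 ± 0.07). Values in brackets here and below are log2 fold changes with their standard error, all for called genes unless stated otherwise. Mafa, another insulin gene activator, was at 96.8, 729 and 688 CPM with vehicle and 62, 629 and 724 CPM with palmitate, a gap between the batches far larger than that between the groups, and was not called (log2 fold change -0.25 ± 0.15, edgeR adjusted p = 0.27). The hormone genes themselves did not pass the test: Ins1 had a log2 fold change of -0.14 ± 0.13, Ins2 of -0.10 ± 0.10, Iapp of 0.19 ± 0.08 and Gcg of 0.01 ± 0.06 (edgeR adjusted p = 0.47, 0.48, 0.1 and 0.96). Neither subunit of the ATP-sensitive potassium channel was called, Kcnj11 at 0.09 ± 0.05 and Abcc8 at -0.02 ± 0.06 (edgeR adjusted p = 0.22 and 0.84).

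Calls among the glycolytic genes went both ways: 7 of 31 members tested were called higher and 6 lower (median log2 fold change 0.56). Eno2, the neuronal enolase, was at 51.6, 48.2 and 46.6 against 75.2, 76.3 and 72.2 CPM (log2 fold change 0.61 ± 0.05, edgeR adjusted p = 9.6e-06), and Slc16a1, a lactate and pyruvate transporter that beta cells normally keep very low, was at 2.48, 2.26 and 1.66 against 5.41, 4.75 and 4.20 CPM (log2 fold change 1.16 ± 0.15, edgeR adjusted p = 2.4e-04). Both rose without overlap between the groups, while Pfkm, the muscle-type phosphofructokinase, was lower (-0.23 ± 0.05). The most abundant enzymes varied among libraries of 1 group: Gapdh was at 698, 1678 and 1072 CPM with vehicle and 1562, 2500.2 and 2016 CPM with palmitate, and its call (edgeR adjusted p = 0.024) was lost without vehicle replicate 1 (adjusted p = 0.1) or without vehicle replicate 3 (adjusted p = 0.08) or without palmitate replicate 1 (adjusted p = 0.08) or without palmitate replicate 2 (adjusted p = 0.08). The number of glycolytic genes called higher was accordingly unstable, at 2 on leaving out vehicle replicate 1, 14 on leaving out vehicle replicate 2, 2 on leaving out vehicle replicate 3, 2 on leaving out palmitate replicate 1 and 2 on leaving out palmitate replicate 2, and 16 with the replicate number as a block.

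Receptors that tune insulin release were lower in palmitate more often than genes at large. Of the islet G protein-coupled receptors, 4 of 70 members tested were called higher and 27 lower (median log2 fold change -0.19), which is 38.6% lower beside 12.0% of all genes. Glp1r, the receptor of the incretin GLP-1, was at 242, 284 and 308 CPM with vehicle and 127, 177 and 145 CPM with palmitate, with no overlap (log2 fold change -0.89 ± 0.07, edgeR adjusted p = 1.2e-05). Ffar3 (a short-chain fatty acid receptor), Lgr4 (a receptor of R-spondins) and Crhr1 (the receptor of corticotropin-releasing hormone) also had groups that did not overlap, with log2 fold changes of -0.51 ± 0.07, -0.44 ± 0.08 and -1.35 ± 0.20. Crhr1 was low throughout, at 2.48, 2.08 and 1.99 against 0.711, 0.891 and 0.932 CPM. Tacr3, the receptor of neurokinin B, went the other way from a low level, at 1.45, 2.39 and 2.06 against 9.25, 9.26 and 6.43 CPM (log2 fold change 2.04 ± 0.23, edgeR adjusted p = 1.2e-04).

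Signalling below the receptors held changes in both directions, at 10.0% called higher and 23.0% lower in the cAMP and phospholipase list. Beside these stand 13.4% and 12.0% of all genes tested. Of the cAMP and phospholipase list, 10 of 100 members tested were called higher and 23 lower (median log2 fold change -0.09), and the lower count was 14 on leaving out vehicle replicate 1 and 15 on leaving out palmitate replicate 1. Prkacb, a catalytic subunit of protein kinase A, was at 516, 436 and 468 CPM with vehicle and 396, 369 and 352 CPM with palmitate (log2 fold change -0.34 ± 0.05, edgeR adjusted p = 3.0e-04). Rapgef4, the cAMP-gated exchange factor EPAC2, fell (-0.34 ± 0.05), as did Gnai1, an inhibitory G protein subunit (-0.57 ± 0.07), and the phospholipase Plch1 (-0.59 ± 0.08). Adcy1, a calcium-stimulated adenylyl cyclase, rose from a low level, at 3.31, 1.96 and 1.87 against 14.8, 7.04 and 6.97 CPM (log2 fold change 1.96 ± 0.14, edgeR adjusted p = 6.8e-06). Rgs4, which shortens G protein signals, was at 160.5, 220.2 and 191 against 247, 333 and 316 CPM (0.65 ± 0.08). Both were higher in each of the 3 same-numbered pairs, which is a condition of 1 of the rules that named Adcy1.

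Ion channel genes that changed were mostly lower, though the shares called lower were not far above that of all genes. They were 17.4% of potassium channels and 15.6% of calcium and sodium channels, beside 12.0% of all genes tested. The shares called higher were 7.25% and 3.12%, beside 13.4%. Of the potassium channels, 5 of 69 members tested were called higher and 12 lower (median log2 fold change -0.18), with counts of 3 on leaving out vehicle replicate 1 and 3 on leaving out palmitate replicate 1 for higher and 7 on leaving out palmitate replicate 3 for lower members. Kcnk16 (TALK-1, a background potassium channel of beta cells) was at 146, 116 and 121 against 113, 84.3 and 86 CPM (log2 fold change -0.44 ± 0.04, edgeR adjusted p = 3.0e-05), and the calcium-activated channel subunit Kcnmb2 was at 109, 95.2 and 96.1 against 65.2, 68.9 and 68.2 CPM (log2 fold change -0.57 ± 0.06, edgeR adjusted p = 4.0e-05). Neither gene's groups overlapped. Of the calcium and sodium channels, 2 of 64 members tested were called higher and 10 lower (median log2 fold change -0.16), and the lower count was 6 on leaving out vehicle replicate 1, 6 on leaving out vehicle replicate 3, 5 on leaving out palmitate replicate 1 and 6 on leaving out palmitate replicate 3. The leading members were Trpm5, a calcium-activated cation channel (-0.75 ± 0.10), and Atp2a3, which encodes the calcium pump SERCA3 of the endoplasmic reticulum, at 1556, 1322 and 1353 CPM with vehicle and 914, 1017 and 1011 CPM with palmitate (log2 fold change -0.53 ± 0.07, edgeR adjusted p = 4.3e-04). The Atp2a3 libraries split cleanly by treatment.

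**Figure D2:**
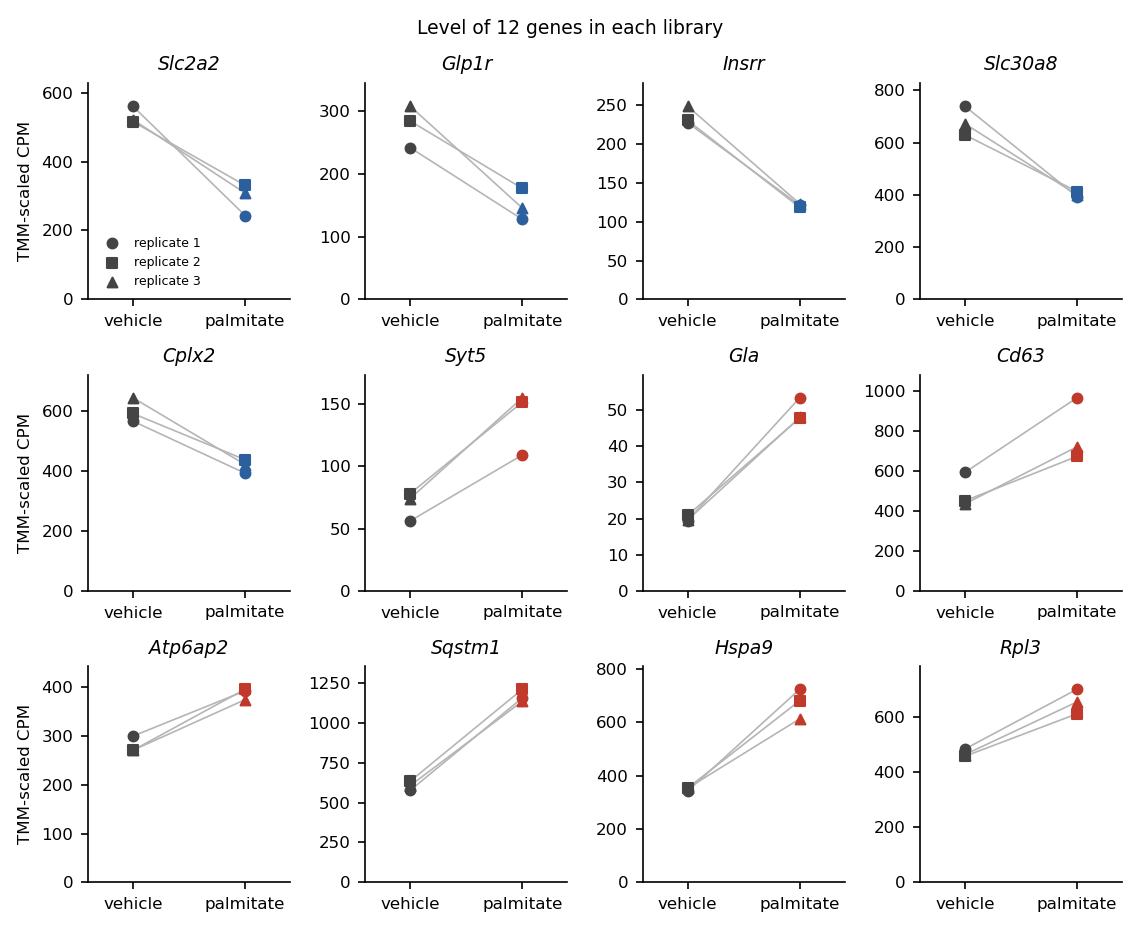
TMM-scaled CPM of 12 genes in each library, vehicle on the left and palmitate on the right of each panel; symbols are replicate numbers and lines join same-numbered libraries. Slc2a2 runs from 516 to 561 CPM in vehicle and from 243 to 331 CPM in palmitate, and in each of the 12 panels the groups do not overlap. The 12 genes were picked from the named genes.

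Granule genes split in a way that followed neither direction as a whole. Of the prohormone processing and granin genes, 9 of 20 members tested were called higher and 4 lower (median log2 fold change 0.13), and the lower count was 2 on leaving out vehicle replicate 1 and 2 on leaving out palmitate replicate 1. Pam, which amidates peptide hormones, was at 761, 959 and 898 CPM with vehicle and 1408, 1905 and 1733 CPM with palmitate (log2 fold change 0.94 ± 0.09, edgeR adjusted p = 4.2e-05). Ptprn, the granule membrane protein IA-2, was at 1012, 1157 and 1046 against 1642, 1877 and 1722 CPM (0.70 ± 0.06), whereas its paralog Ptprn2 was at 1088, 1044 and 1049 against 734, 883 and 787 CPM (-0.41 ± 0.07); both gave groups without overlap, in opposite directions. The granins also diverged. Chgb (0.39 ± 0.08) and Scg3 (0.44 ± 0.04) rose, and Vgf, the precursor of several neuropeptides, was at 53.6, 90.02 and 74.8 against 278, 387 and 344 CPM (log2 fold change 2.21 ± 0.15, edgeR adjusted p = 2.0e-05). Chga was at 13448, 12131 and 12339 CPM with vehicle and 8519.8, 9886 and 10711 CPM with palmitate (log2 fold change -0.39 ± 0.09, edgeR adjusted p = 0.0098), with no overlap, and its call was lost without vehicle replicate 1 (adjusted p = 0.053) or without palmitate replicate 1 (adjusted p = 0.068). Slc30a8, the transporter that loads granules with the zinc on which insulin crystallises, was at 739, 629.5 and 672 CPM with vehicle and 393, 413 and 399.7 CPM with palmitate (log2 fold change -0.76 ± 0.07, edgeR adjusted p = 2.1e-05). The 3 palmitate libraries lay close together, all below the lowest vehicle library.

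The fusion machinery also had members called in both directions. The share called higher was 15.0%, close to the 13.4% of all genes tested. The share called lower was 23.3%, beside 12.0%. Of the exocytosis genes, 9 of 60 members tested were called higher and 14 lower (median log2 fold change -0.06); the counts were 5 on leaving out vehicle replicate 1 for higher and 9 on leaving out vehicle replicate 3 and 9 on leaving out palmitate replicate 1 for lower members. Cplx2, the complexin that clamps and primes SNARE complexes, was at 567, 592 and 645 CPM with vehicle and 393, 438 and 422 CPM with palmitate (log2 fold change -0.53 ± 0.04, edgeR adjusted p = 1.2e-05). Docking and priming genes fell with it: Rims3 (-0.72 ± 0.06), Rimbp2 (-0.46 ± 0.07), Cadps (-0.51 ± 0.05) and the granule effector Sytl4 (-0.53 ± 0.06). None of these 5 genes had overlapping groups. Syt5, a calcium sensor of granules, moved the opposite way, at 56.2, 78.1 and 74.2 against 109, 152 and 155 CPM (log2 fold change 0.99 ± 0.07, edgeR adjusted p = 5.2e-06).

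Lysosomal genes were higher in palmitate more often than genes at large. The lysosome degrades proteins, lipids and glycogen in an acid lumen, which the proton pump V-ATPase maintains; in beta cells it also takes up surplus granules. The transcription factor TFEB and its relatives bind an E-box element in the promoters of many such genes. Of the V-ATPase subunits, 15 of 20 members tested were called higher and 0 lower (median log2 fold change 0.30). Atp6ap2, an accessory subunit, was at 300.1, 271 and 271 CPM with vehicle and 393, 396 and 375 CPM with palmitate (log2 fold change 0.47 ± 0.04, edgeR adjusted p = 2.2e-05). The catalytic subunit Atp6v1a was at 194, 185 and 182 against 259, 255 and 230.2 CPM (0.41 ± 0.05), and Atp6v0b (0.41 ± 0.04), Atp6ap1 (0.36 ± 0.04), Atp6v1g1 (0.41 ± 0.05) and Atp6v1h (0.32 ± 0.04) had changes of like size. The groups of all 6 genes did not overlap, as for 3148 of the 4005 called genes.

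Of the lysosomal hydrolases and membrane proteins, 27 of 54 members tested were called higher and 4 lower (median log2 fold change 0.19). Gla, the alpha-galactosidase that is deficient in Fabry disease, was at 19.4, 20.9 and 19.6 CPM with vehicle and 53.4, 47.7 and 48 CPM with palmitate (log2 fold change 1.31 ± 0.10, edgeR adjusted p = 1.2e-05). Gaa, which digests glycogen, was at 272, 256 and 249 against 346, 352 and 338 CPM (0.42 ± 0.04). Both enzymes were higher in every palmitate library than in any vehicle library. Ctsb, the protease cathepsin B, was among the most abundant members, at 740.2, 663 and 682 CPM with vehicle and 1119.5, 981 and 981 CPM with palmitate (log2 fold change 0.56 ± 0.05, edgeR adjusted p = 2.4e-05). Cd63, a tetraspanin of lysosomes and granules, was at 592, 449.8 and 435 against 965, 672 and 720.3 CPM (0.67 ± 0.05), with both libraries numbered 1 above the others of their group. Cd68, a lysosomal protein listed among the macrophage markers, also rose (0.70 ± 0.09). The summed level of the 15 macrophage markers was 404, 320.4 and 316 CPM in vehicle replicates 1, 2 and 3 and 358, 272 and 272 CPM in palmitate, with 2 members called lower, so most of that list did not rise with Cd68.

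The palindromic E-box TCACGTGA was found in the RefSeq promoter windows (GRCm38.p6, 250 bases before to 50 after the start site) of 3 of 14 V-ATPase genes and 5 of 43 lysosomal genes that have an entry. Among all 11650 genes tested with an entry, 1.96% held it, as did 3.07% of those called higher and 1.63% of those called lower. Of the 8 list members with the motif, 6 were called higher; Atp6v0e and Ctsd, which also carry it, were not called. Members without it rose as well, 8 of 11 V-ATPase and 15 of 38 lysosomal genes, so genes with and without the element were among those called. The stretches from the 6 called genes are shown because they place the element within the promoter of genes that rose; each is written 5′ to 3′ on the gene's strand with the motif in capitals.

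Gla, chrX:134601216-134601243, minus strand: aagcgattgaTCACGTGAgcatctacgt
Gla, chrX:134601183-134601210, minus strand: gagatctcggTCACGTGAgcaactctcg
Mcoln1, chr8:3500463-3500490, plus strand: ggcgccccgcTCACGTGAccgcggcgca
Cln3, chr7:126583341-126583368, minus strand: acgggtactgTCACGTGAcccccaacct
Ctsa, chr2:164833750-164833777, plus strand: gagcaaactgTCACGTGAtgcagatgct
Ctsa, chr2:164833767-164833794, plus strand: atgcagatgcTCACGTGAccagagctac
Atp6v1a, chr16:44139374-44139401, minus strand: tttttttaaaTCACGTGAtaggcttaac
Atp6v0d1, chr8:105566051-105566078, minus strand: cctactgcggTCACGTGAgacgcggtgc

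Gla and Ctsa each hold the element at 2 places. Besides Gla and Atp6v1a, the genes shown had log2 fold changes of Mcoln1 (0.52 ± 0.06), Cln3 (0.41 ± 0.08), Ctsa (0.23 ± 0.06) and Atp6v0d1 (0.30 ± 0.04). Mcoln1 is the calcium channel of the lysosomal membrane and Cln3 the protein lost in juvenile Batten disease.

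Autophagy genes changed in both directions, 17.8% higher and 26.7% lower, beside 13.4% and 12.0% of all genes tested. Of the autophagy machinery, 8 of 45 members tested were called higher and 12 lower (median log2 fold change -0.07). Sqstm1 (p62), which brings cargo to the autophagosome, rose, at 576, 634 and 606 CPM with vehicle and 1156, 1209 and 1134 CPM with palmitate (log2 fold change 0.95 ± 0.06, edgeR adjusted p = 5.2e-06), as did another such receptor, Optn, at 20.8, 21.6 and 21 against 37.9, 42 and 38.2 CPM (0.90 ± 0.08). Neither gene's groups overlapped. Pik3c3, the lipid kinase VPS34 that starts the autophagosome membrane, was lower, at 43.8, 44.1 and 47.1 against 32.4, 33 and 35.3 CPM (log2 fold change -0.42 ± 0.05, edgeR adjusted p = 1.7e-04). The lower count rested on few libraries, at 6 on leaving out vehicle replicate 3 and 7 on leaving out palmitate replicate 3. Of the proteasome genes, 15 of 49 members tested were called higher and 1 lower (median log2 fold change 0.13), and the higher count was 23 with the replicate number as a block. Those called higher moved by small amounts, such as Psmb6 (0.24 ± 0.05) and Psmb4 (0.31 ± 0.06). Psmb9, an interferon-inducible immunoproteasome subunit, was the member called lower, at 10.4, 8.02 and 9.82 against 6.01, 4.32 and 5.38 CPM (log2 fold change -0.85 ± 0.12, edgeR adjusted p = 3.6e-04).

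**Figure D3:**
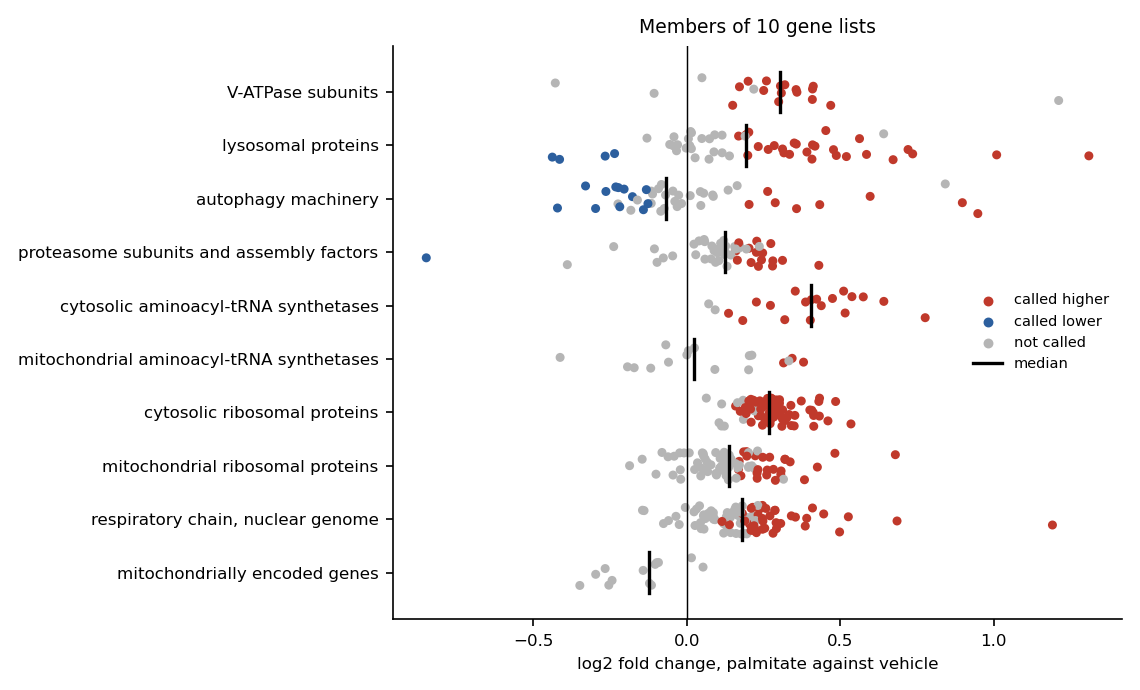
Log2 fold change in palmitate against vehicle of each member of 10 gene lists (1 point a gene; red called higher, blue called lower, grey not called; black bar, median). The V-ATPase and lysosomal medians are 0.30 and 0.19, the autophagy median is -0.07, and the 13 mitochondrially encoded genes have no call.

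The protein synthesis machinery was higher as a broad, shallow shift. Of the cytosolic ribosomal protein genes, 65 of 75 members tested were called higher and 0 lower (median log2 fold change 0.27). The higher count was 21 without the batch term and 29 within batch 2 alone, where fewer libraries were fitted. Rpl3, a core protein of the large subunit, was at 484, 458 and 464 CPM with vehicle and 701, 612 and 655 CPM with palmitate (log2 fold change 0.48 ± 0.04, edgeR adjusted p = 2.6e-05). Rps2 of the small subunit was at 438, 533 and 541 against 668, 723 and 793 CPM (0.53 ± 0.05), and Rpl4 (0.37 ± 0.04) and Rpl7a (0.34 ± 0.04) were also among the clearest. For these 4 genes the groups did not overlap. Many ribosomal protein genes have processed pseudogenes with near-identical sequence, so reads may be divided among copies. Of the factors that assemble ribosomes in the nucleolus, 29 of 37 members tested were called higher and 0 lower (median log2 fold change 0.36), led by Gnl3 (nucleostemin) at 34.8, 34.2 and 35 against 63.3, 52.1 and 51.3 CPM (log2 fold change 0.67 ± 0.06, edgeR adjusted p = 2.9e-05), Nop58 (0.48 ± 0.05) and Npm1 (0.44 ± 0.05). Of the initiation and elongation factors, 39 of 62 members tested were called higher and 1 lower (median log2 fold change 0.21). That higher count was 21 without the batch term and 25 within batch 2 alone. Eif3c and Eif5, both parts of the preinitiation complex, were at 281, 303 and 299 against 446, 474 and 439 CPM (0.62 ± 0.05) and 301, 339 and 333 against 486, 509 and 477 CPM (0.60 ± 0.05). The most abundant factor, Eef1a1, which brings aminoacyl-tRNA to the ribosome, was at 4139, 3567 and 3718 CPM with vehicle and 5288, 4420.4 and 4622 CPM with palmitate (log2 fold change 0.33 ± 0.05, edgeR adjusted p = 7.1e-04).

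Cytosolic aminoacyl-tRNA synthetases were almost all higher. These enzymes charge tRNAs with amino acids, and those of the cytosol are known targets of ATF4 through a composite element called CARE. Of the cytosolic enzymes, 18 of 20 members tested were called higher and 0 lower (median log2 fold change 0.40); of the mitochondrial enzymes, 3 of 17 members tested were called higher and 0 lower (median log2 fold change 0.02). The difference between the 2 lists was not tested. Sars was at 246, 244 and 233 CPM with vehicle and 403, 415 and 420.0 CPM with palmitate (log2 fold change 0.78 ± 0.04, edgeR adjusted p = 2.5e-06), and Rars (0.57 ± 0.05), Aars (0.54 ± 0.04) and Vars (0.41 ± 0.04) were also without overlap. Part of this list also belongs to the integrated stress response list. The CARE core TGATGCAA, on either strand, was in the promoter window of 4 of 12 cytosolic synthetase genes with an entry, beside 0.747% of all genes tested, 1.39% of those called higher and 0.543% of those called lower. All 4 genes with it and 6 of 8 without it were called higher. The stretches of 3 of them are shown with the core in capitals, which on the gene's strand reads as its reverse complement in Tars and Iars.

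Tars, chr15:11399656-11399683, minus strand: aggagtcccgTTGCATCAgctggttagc
Yars, chr4:129189896-129189923, plus strand: cgagctcagcTGATGCAAcccgacggga
Iars, chr13:49682127-49682154, plus strand: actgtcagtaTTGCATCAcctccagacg

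Of the 4, Aars was at 278, 267 and 263 against 397, 398 and 379 CPM, Tars at 93.8, 103 and 97.1 against 127, 146 and 146 CPM (0.51 ± 0.05) and Yars at 104, 93.9 and 94.6 against 139, 134 and 133 CPM (0.47 ± 0.04), and the log2 fold change of Iars was 0.35 ± 0.05.

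Many mitochondrial genes of nuclear origin were higher, while those of the mitochondrial genome did not pass the test. Of the respiratory chain and ATP synthase genes in the nucleus, 38 of 88 members tested were called higher and 0 lower (median log2 fold change 0.18). The higher count was 24 on leaving out palmitate replicate 3, 9 without the batch term and 19 within batch 2 alone. Atp5g1, which forms the proton-conducting ring of ATP synthase, was at 109.5, 89.4 and 94 CPM with vehicle and 148, 126 and 139 CPM with palmitate (log2 fold change 0.50 ± 0.06, edgeR adjusted p = 1.7e-04). Cyc1 of complex III was at 61.1, 59 and 64 against 79.8, 75.5 and 77.7 CPM (0.34 ± 0.05). Both gave groups without overlap. Of the 13 protein genes of the mitochondrial genome, 0 were called in either direction (median -0.12), and 1 was called lower with the replicate number as a block. By same-numbered pair the median of those 13 was -0.44, -0.04 and -0.07, so pair 1 lay apart. The nuclear and mitochondrial lists were not tested against each other.

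Of the genes for mitochondrial import and protein quality control, 26 of 44 members tested were called higher and 1 lower (median log2 fold change 0.25), with a higher count of 16 on leaving out vehicle replicate 1, 17 on leaving out palmitate replicate 1 and 16 on leaving out palmitate replicate 3. Hspa9, the matrix chaperone mortalin that pulls proteins through the inner membrane, was at 342, 353 and 353 CPM with vehicle and 724, 681 and 613 CPM with palmitate (log2 fold change 0.94 ± 0.07, edgeR adjusted p = 9.4e-06). The matrix protease Lonp1 was at 102, 105 and 105 against 223, 177 and 161 CPM (0.83 ± 0.10). Both genes had groups far apart, and smaller changes were seen in Grpel2 (0.62 ± 0.08) and Dnaja3 (0.38 ± 0.05), partners of the matrix chaperone. Of the mitochondrial ribosomal proteins, 25 of 78 members tested were called higher and 0 lower (median log2 fold change 0.14), a count that was 12 on leaving out vehicle replicate 1, 16 on leaving out vehicle replicate 3 and 11 on leaving out palmitate replicate 3. Mrps18b was the clearest, at 26.3, 25.1 and 24.4 against 43.4, 37.1 and 40.9 CPM (0.68 ± 0.07).

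Substrate supply to the mitochondria was mixed. Of the tricarboxylic acid cycle and pyruvate entry genes, 17 of 43 members tested were called higher and 5 lower (median log2 fold change 0.08). Got1, the cytosolic aspartate aminotransferase of the malate-aspartate shuttle, was at 36.4, 29.4 and 34.9 CPM with vehicle and 71.3, 54.1 and 57.9 CPM with palmitate (log2 fold change 0.86 ± 0.07, edgeR adjusted p = 1.2e-05). Idh3a (0.36 ± 0.05), Me1 (0.44 ± 0.08) and Pdk3, an inhibitory kinase of pyruvate dehydrogenase (0.83 ± 0.11), rose too. Of the SLC25 carriers of the inner membrane, 13 of 41 members tested were called higher and 8 lower (median log2 fold change 0.13), with a lower count of 5 on leaving out vehicle replicate 1 and 5 on leaving out vehicle replicate 3. Slc25a5, an ADP/ATP carrier, was at 196, 186 and 186 against 282, 237 and 254 CPM (0.44 ± 0.04), and the phosphate carrier Slc25a3 at 249, 273 and 285 against 314, 352 and 386 CPM (0.38 ± 0.05). In contrast, Slc25a23, a calcium-regulated ATP-magnesium carrier, was at 76.4, 73.9 and 80.3 against 51.5, 52.5 and 52.3 CPM (-0.56 ± 0.05), and Slc25a42, a carrier of coenzyme A, at 40.6, 42.5 and 43.6 against 28.2, 31.8 and 30.3 CPM (-0.49 ± 0.05).

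The direction of change moved with transcript length. Protein-coding genes called higher had a median annotated transcript of 2224 bases, those called lower of 3627 bases and all tested of 2778 bases. In the quintile with the shortest transcripts, 18.7% were called higher and 5.25% lower; in the quintile with the longest, 6.32% were higher and 19.6% lower. The median log2 fold change ran from 0.072 to -0.107 across the quintiles, and the shortest quintile was at 0.055 without ribosomal protein and respiratory chain genes. The trend was not alike in the pairs: from the shortest to the longest quintile the median ran from 0.086 to -0.079 in pair 1, from 0.014 to -0.014 in pair 2 and from 0.108 to -0.211 in pair 3. Ribosomal protein genes and nuclear respiratory chain genes are short, with median transcripts of 729 and 709 bases. After subtraction of the median of each gene's own length quintile, a step chosen after the data were seen, the list median was 0.20 for cytosolic ribosomal proteins, 0.11 for the respiratory chain, 0.28 for the V-ATPase and 0.19 for lysosomal genes, and -0.16 for the receptors and -0.20 for the beta cell factors. Other lists moved further in proportion: the median of the insulin and IGF pathway went from -0.10 to -0.04, of mitochondrial ribosomal proteins from 0.14 to 0.07, of axon guidance genes from -0.20 to -0.12 and of calcium and sodium channels from -0.16 to -0.11. The part of length in these results was not otherwise tested.

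**Figure D4:**
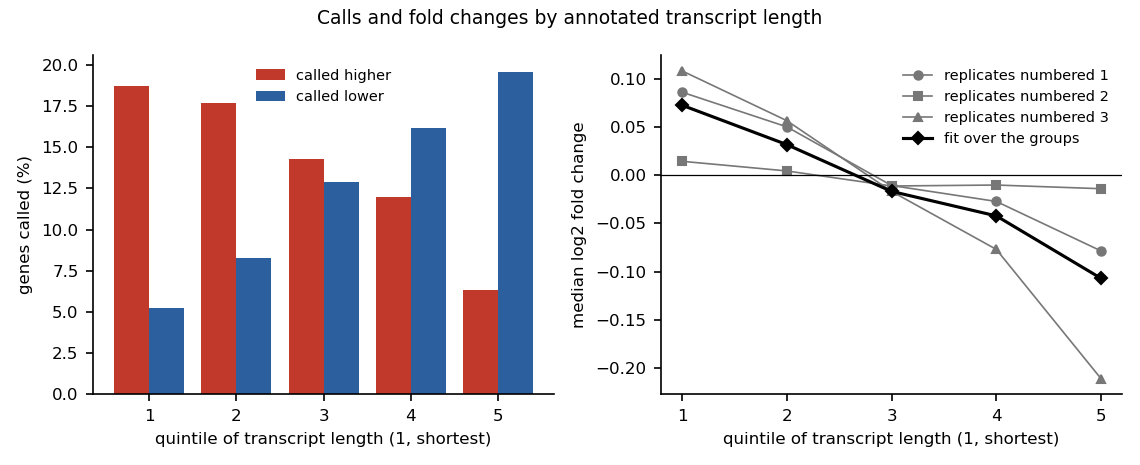
Left, percent of protein-coding genes called higher (red) or lower (blue) in palmitate in each quintile of annotated transcript length; right, median log2 fold change in each quintile from the fit over the groups (diamonds) and within each same-numbered pair (grey). Calls higher go from 18.7% in the shortest to 6.32% in the longest quintile, and the slope is shallow in the libraries numbered 2.

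Entry into the secretory pathway shifted slightly upward. Of the genes for signal peptide targeting, the translocon and N-glycosylation, 13 of 36 members tested were called higher and 0 lower (median log2 fold change 0.14). Krtcap2 and Dad1, both subunits of the oligosaccharyltransferase that attaches N-glycans, were at 75.4, 77.1 and 78.6 against 99.4, 94.2 and 106 CPM (0.37 ± 0.05) and 139, 116 and 118 against 165, 152 and 177 CPM (0.41 ± 0.06). The Dad1 and Krtcap2 groups did not overlap. The COPII, COPI and p24 genes carry vesicles between the endoplasmic reticulum and the Golgi. Of these, 8 of 49 members tested were called higher and 2 lower (median log2 fold change 0.04). The shares, 16.3% and 4.08%, stand beside 13.4% and 12.0% of all genes tested. The higher count was 4 on leaving out vehicle replicate 3 and 5 on leaving out palmitate replicate 3. Among the tubulins and actin regulators, 22 of 58 members tested were called higher and 9 lower (median log2 fold change 0.13), and the higher count was 14 on leaving out palmitate replicate 3. Tuba4a, an alpha-tubulin, was at 121, 105 and 102 CPM with vehicle and 187, 201 and 200.4 CPM with palmitate (log2 fold change 0.85 ± 0.08, edgeR adjusted p = 2.2e-05), and Actg1, cytoplasmic gamma-actin, at 1013, 1144 and 1023 against 1355, 1616 and 1562 CPM (0.51 ± 0.07). Map2, which stabilises microtubules, was at 472, 419 and 437 against 280.1, 304 and 264 CPM (-0.65 ± 0.06), opposite in direction. Of the kinesins and dyneins, 4 of 67 members tested were called higher and 12 lower (median log2 fold change -0.14). That is 5.97% higher and 17.9% lower, beside 13.4% and 12.0% of all genes tested.

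Lipid synthesis genes outside oxidation moved in several directions. Of the fatty acid synthesis and desaturation genes, 12 of 27 members tested were called higher and 3 lower (median log2 fold change 0.16). Hsd17b12 and Elovl7, enzymes of fatty acid elongation, were at 57.7, 70.1 and 69.1 against 95.8, 106 and 108 CPM (log2 fold change 0.66 ± 0.05, edgeR adjusted p = 9.6e-06) and 8.52, 9.88 and 10.9 against 16.9, 17.2 and 16.7 CPM (0.79 ± 0.10), and neither overlapped. Of the triglyceride and phospholipid genes, 13 of 46 members tested were called higher and 6 lower (median log2 fold change 0.11), with counts of 8 on leaving out vehicle replicate 1 and 8 on leaving out palmitate replicate 1 for higher and 2 on leaving out vehicle replicate 1, 3 on leaving out vehicle replicate 3 and 3 on leaving out palmitate replicate 1 for lower members. Dgat2, which makes triglyceride, rose from a low level, at 2.11, 3.77 and 4.09 against 10.7, 15 and 12.5 CPM (log2 fold change 1.93 ± 0.26, edgeR adjusted p = 5.0e-04). Plpp2, a phosphatidate phosphatase of the cell surface, was at 8.64, 10.6 and 9.61 against 24.1, 22.2 and 22.6 CPM (1.24 ± 0.12). The lysophospholipid acyltransferases diverged, with Lpcat3, which inserts polyunsaturated chains into membranes, higher (0.43 ± 0.04) and Lpcat1, which makes saturated phosphatidylcholine, lower (-0.59 ± 0.06).

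Of the cholesterol genes, 8 of 37 members tested were called higher and 7 lower (median log2 fold change 0.02). These are 21.6% and 18.9%, beside 13.4% and 12.0% of all genes tested. The lower count was 4 on leaving out vehicle replicate 3 and 4 on leaving out palmitate replicate 1. Within the synthesis route itself Sqle was higher, at 174, 176 and 175 against 222, 220.1 and 214 CPM (0.32 ± 0.05). Srebf1, the lipid synthesis regulator, was at 187, 159 and 160.4 against 135, 129.8 and 133 CPM (log2 fold change -0.34 ± 0.05, edgeR adjusted p = 3.3e-04). Of the sphingolipid genes, 7 of 37 members tested were called higher and 7 lower (median log2 fold change 0.02). Each share was 18.9%. Sgpp2, which dephosphorylates sphingosine 1-phosphate, was at 85.5, 94.6 and 104 CPM with vehicle and 53.2, 64.2 and 64.2 CPM with palmitate (log2 fold change -0.65 ± 0.05, edgeR adjusted p = 8.3e-06). Smpd3, a neutral sphingomyelinase, was also lower (-0.33 ± 0.05), while the lysosomal ceramidase Asah1 was higher (0.41 ± 0.06).

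Amino acid handling was raised at the serine branch. Of the serine, glycine and one-carbon enzymes, 9 of 24 members tested were called higher and 1 lower (median log2 fold change 0.26). Psat1, the aminotransferase of serine synthesis, was at 42.6, 33.5 and 34 CPM with vehicle and 89.9, 104 and 108 CPM with palmitate (log2 fold change 1.47 ± 0.14, edgeR adjusted p = 1.0e-04), beside Phgdh (0.98 ± 0.14), Psph (0.96 ± 0.15) and the mitochondrial folate enzyme Mthfd2 (0.60 ± 0.10). Mthfd1, its cytosolic counterpart, was the member called lower (-0.30 ± 0.04). Of the amino acid transporters, 10 of 37 members tested were called higher and 7 lower (median log2 fold change 0.04). The cationic transporter Slc7a1 was higher, at 94.2, 88.9 and 82.7 against 139, 147 and 122 CPM (0.62 ± 0.08), and Slc7a2, a cationic transporter that is also an alpha cell marker, was lower, at 649.7, 522 and 529 against 321, 323 and 279 CPM (log2 fold change -0.87 ± 0.07, edgeR adjusted p = 9.4e-06). The alpha cell markers as a list had 2 of 14 members called higher and 3 lower, with Gcg not called. Of the pentose phosphate and nucleotide genes, 13 of 36 members tested were called higher and 6 lower (median log2 fold change 0.10), and the lower count was 3 on leaving out vehicle replicate 3, 3 on leaving out palmitate replicate 1 and 3 on leaving out palmitate replicate 3. Nme1, a nucleoside diphosphate kinase, was at 80.4, 70.2 and 69.6 against 119, 102 and 112 CPM (0.60 ± 0.05), and Impdh2 and Ctps, rate-limiting for guanine and cytidine nucleotides, rose by 0.44 ± 0.06 and 0.39 ± 0.05.

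Several abundant metal-binding genes rose. Ftl1, the ferritin light chain that stores iron, was at 1349.9, 1728 and 1589 CPM with vehicle and 2386, 2564 and 2617 CPM with palmitate (log2 fold change 0.70 ± 0.05, edgeR adjusted p = 9.9e-06). The metallothioneins Mt1 and Mt2, small proteins that buffer zinc, were at 226, 378 and 337 against 674, 671 and 607 CPM (log2 fold change 1.07 ± 0.17, edgeR adjusted p = 0.0018) and 128, 360.0 and 313 against 454, 658 and 555 CPM (log2 fold change 1.15 ± 0.22, edgeR adjusted p = 0.0064). In all 3 genes every palmitate library exceeded every vehicle library, though vehicle replicate 1 was low for both metallothioneins. Of the zinc transporters and metallothioneins as a list, 7 of 25 members tested were called higher and 3 lower (median log2 fold change 0.09), with a higher count of 4 on leaving out vehicle replicate 3. Of the antioxidant and NRF2 targets, 17 of 50 members tested were called higher and 5 lower (median log2 fold change 0.18), led by the sulfiredoxin Srxn1 at 127, 125 and 115 against 191, 187 and 191 CPM (log2 fold change 0.63 ± 0.05, edgeR adjusted p = 1.8e-05). Of the p53 targets, 6 of 28 members tested were called higher and 2 lower (median log2 fold change 0.05). Plk3, a stress-responsive kinase, was at 31, 29.1 and 30.2 CPM with vehicle and 80.4, 96.8 and 99.8 CPM with palmitate (log2 fold change 1.62 ± 0.07, edgeR adjusted p = 3.9e-07), and Cdkn1a, the cell cycle inhibitor p21, at 49.3, 64.4 and 53 against 93.1, 102 and 90.3 CPM (0.78 ± 0.10). Sesn1 was lower (-0.60 ± 0.06) although its paralog Sesn2 was higher (0.30 ± 0.05).

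Growth factor signalling genes that changed were mainly lower, though the share of Wnt genes called lower was close to that of all genes. That share was 23.5% for the insulin and IGF pathway and 12.5% for the Wnt pathway, beside 12.0% of all genes tested. After subtraction of the length quintile medians, the list median was -0.04 for insulin and IGF, -0.13 for TGF-beta, activin and BMP and 0.003 for Wnt. Of the insulin and IGF pathway, 5 of 51 members tested were called higher and 12 lower (median log2 fold change -0.10); the lower count was 7 on leaving out palmitate replicate 1 and the higher count 3 on leaving out vehicle replicate 1 and 3 on leaving out palmitate replicate 1. Insrr, the insulin receptor-related receptor, was at 228, 231 and 249 CPM with vehicle and 121, 118 and 123 CPM with palmitate (log2 fold change -0.96 ± 0.07, edgeR adjusted p = 6.9e-06). Pik3r3, a regulatory subunit of phosphoinositide 3-kinase, was at 66.1, 63.1 and 68.6 against 39.4, 36.8 and 40.1 CPM (log2 fold change -0.77 ± 0.05, edgeR adjusted p = 7.0e-06). Deptor, an inhibitor of mTOR, fell too (-0.43 ± 0.07), whereas Insr itself was not called (-0.15 ± 0.11, edgeR adjusted p = 0.39). Of the TGF-beta, activin and BMP pathway, 1 of 50 members tested were called higher and 10 lower (median log2 fold change -0.16), with a lower count of 6 on leaving out vehicle replicate 3. Acvr1c encodes the receptor ALK7 and was at 15.2, 16 and 17.3 against 4.94, 7.21 and 5.71 CPM (log2 fold change -1.44 ± 0.11, edgeR adjusted p = 8.3e-06). Tgfbr3, Acvr1b and Smad5 had smaller changes, of -0.53 ± 0.07, -0.33 ± 0.06 and -0.34 ± 0.06. Of the Wnt pathway, 3 of 40 members tested were called higher and 5 lower (median log2 fold change -0.02), with counts of 0 on leaving out vehicle replicate 1, 1 on leaving out vehicle replicate 3, 0 on leaving out palmitate replicate 1 and 1 on leaving out palmitate replicate 2 for higher and 2 on leaving out vehicle replicate 1, 3 on leaving out vehicle replicate 2, 2 on leaving out vehicle replicate 3, 3 on leaving out palmitate replicate 1 and 2 on leaving out palmitate replicate 3 for lower members. Wnt4, the main Wnt ligand of islets, was at 288, 246 and 255 against 173, 161 and 175 CPM (log2 fold change -0.63 ± 0.08, edgeR adjusted p = 1.5e-04).

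The surface and cilium lists all had medians below 0, but their shares of genes called lower differed. Beside 12.0% of all genes tested, the share was 27.1% for the cilium, 16.2% for synaptic and homophilic adhesion and 17.9% for axon guidance. It was 9.09% for collagens and laminins and 10.1% for integrins and matrix proteases, both under the share over all genes. Of the genes for transport in the primary cilium, the sensory projection of islet cells, 1 of 59 members tested were called higher and 16 lower (median log2 fold change -0.09), with a lower count of 9 on leaving out vehicle replicate 3 and 10 on leaving out palmitate replicate 3. Bbs4 and Bbs2 of the BBSome were at 23.7, 24.1 and 24.9 against 18.3, 18.3 and 17.2 CPM (-0.44 ± 0.06) and 38.1, 34.5 and 36.4 against 25.4, 28.6 and 27.1 CPM (-0.42 ± 0.06), and Ift80 of the intraflagellar train fell by 0.45 on the log2 scale. All 3 had groups without overlap. Of the synaptic and homophilic adhesion genes, 1 of 80 members tested were called higher and 13 lower (median log2 fold change -0.22), led by Slitrk6 at 118, 124 and 133 against 78.2, 86.1 and 84.7 CPM (log2 fold change -0.59 ± 0.05, edgeR adjusted p = 1.2e-05). Of the axon guidance genes, 0 of 67 members tested were called higher and 12 lower (median log2 fold change -0.20), with a lower count of 7 on leaving out vehicle replicate 3. Of the collagens and laminins, 4 of 55 members tested were called higher and 5 lower (median log2 fold change -0.27), and of the integrins and matrix proteases, 2 of 79 members tested were called higher and 8 lower (median log2 fold change -0.18). The lower count of the collagens and laminins was 2 on leaving out vehicle replicate 1, 8 on leaving out vehicle replicate 2, 3 on leaving out palmitate replicate 1 and 3 on leaving out palmitate replicate 2, 8 with DESeq2 and 11 in the fit of the 6 libraries alone. That of the integrins and proteases was 4 on leaving out vehicle replicate 1, 5 on leaving out vehicle replicate 2, 5 on leaving out vehicle replicate 3, 5 on leaving out palmitate replicate 1, 4 on leaving out palmitate replicate 2 and 3 on leaving out palmitate replicate 3. Col16a1 rose to 61.4, 64.4 and 51.6 CPM from 23.2, 28.5 and 20.02 CPM (1.30 ± 0.14), and Col6a6 fell to 61.2, 94 and 76.1 CPM from 145, 176 and 167 CPM (-1.09 ± 0.15).

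Markers of vessels and stroma were lower in the palmitate libraries. Of the endothelial markers, 0 of 18 members tested were called higher and 10 lower (median log2 fold change -0.49). Kdr, the VEGF receptor of endothelium, was at 43.2, 42.1 and 61.4 CPM with vehicle and 17.6, 22.5 and 31 CPM with palmitate (log2 fold change -1.06 ± 0.17, edgeR adjusted p = 0.0017), and Emcn, endomucin, at 14.4, 11.2 and 18 against 4.86, 5.37 and 7.83 CPM (-1.28 ± 0.22). Neither overlapped. The lower count was 4 on leaving out vehicle replicate 1, 5 on leaving out vehicle replicate 3, 5 on leaving out palmitate replicate 1 and 5 on leaving out palmitate replicate 2. It was 3 without the batch term, 1 within batch 2 alone, 5 with limma voom and 6 in the fit of the 6 libraries alone. Summed over the list, the endothelial level was 300.5, 328 and 416 CPM in vehicle replicates 1, 2 and 3 and 172, 249 and 303 CPM in palmitate, lower in each same-numbered pair with overlap between the groups. Of the fibroblast and pericyte markers, 0 of 15 members tested were called higher and 6 lower (median log2 fold change -0.64), with a lower count of 2 on leaving out vehicle replicate 1, 3 on leaving out vehicle replicate 3, 3 on leaving out palmitate replicate 2 and 1 on leaving out palmitate replicate 3; Pdgfrb was at 63, 42 and 56.4 against 33.5, 22.8 and 23.5 CPM (-1.02 ± 0.24), a call lost without vehicle replicate 1 (adjusted p = 0.07) or without vehicle replicate 3 (adjusted p = 0.055) or without palmitate replicate 2 (adjusted p = 0.06) or without palmitate replicate 3 (adjusted p = 0.067). The sum over that list was 805, 420.3 and 548 CPM in vehicle replicates 1, 2 and 3 and 835, 256 and 280.4 CPM in palmitate, higher in palmitate in pair 1 and lower in pairs 2 and 3. None of the markers of either list was at 0.

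Several genes counted above are also expressed in vessels. Of the Notch pathway, 1 of 29 members tested were called higher and 9 lower (median log2 fold change -0.18), among them Notch1 at 87.1, 90.3 and 92.4 against 56.9, 64.9 and 59.3 CPM (log2 fold change -0.58 ± 0.07, edgeR adjusted p = 1.0e-04), Notch4, an endothelial receptor, at 18.2, 24.1 and 27.7 against 12.2, 18.3 and 19.7 CPM (-0.48 ± 0.09), Heyl, a Notch target of mural cells, at 27.3, 13.8 and 20.2 against 11.2, 6.32 and 8.98 CPM (-1.20 ± 0.27), and the ligase Neurl1b at 7.07, 6.04 and 7.13 against 1.90, 2.94 and 2.54 CPM (-1.44 ± 0.16). The guidance receptors Plxnd1 (-0.52 ± 0.08) and Nrp1 (-0.68 ± 0.14), the matrix gene Lamb1 (-0.49 ± 0.11) and the channel Kcnj8 of pericytes (-1.35 ± 0.23) are further examples. The part of the endothelial and stromal markers in these results was not tested. Delta cell markers had 0 of 8 members called in either direction, and Sst was at 1632, 1373 and 1605 against 1691, 1570.5 and 1879 CPM (log2 fold change 0.16 ± 0.10, edgeR adjusted p = 0.27). Of the PP cell markers 1 of 5 was called, Pyy, at 1052, 1159.9 and 1267 against 1315, 1430.2 and 1674 CPM (log2 fold change 0.34 ± 0.08, edgeR adjusted p = 0.0089).

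Among genes outside the lists, several had large changes. Ttyh1, a membrane protein of neural cells, was at 32.3, 47.5 and 41 CPM with vehicle and 154, 210.5 and 226 CPM with palmitate (log2 fold change 2.28 ± 0.12, edgeR adjusted p = 5.2e-06). Diras2, a small GTPase, was at 13.1, 32.2 and 25.4 against 101, 197 and 149 CPM (2.68 ± 0.24), the kinase Dclk1 at 8.15, 7.32 and 7.41 against 19.4, 34.6 and 29.2 CPM (1.85 ± 0.23) and the elastic fibre protein Fbln5 at 2.44, 1.96 and 1.80 against 5.65, 8.31 and 9.04 CPM (1.89 ± 0.22). All 4 were higher without overlap. On the lower side, Dpp10, which modulates potassium channels, was at 55.5, 36.2 and 42.2 against 20.8, 18.6 and 16.3 CPM (log2 fold change -1.25 ± 0.11, edgeR adjusted p = 2.8e-05), and Fam151a at 276, 286 and 283 against 128, 142 and 158 CPM (log2 fold change -0.99 ± 0.11, edgeR adjusted p = 1.4e-04). Ddc, which makes dopamine and serotonin from their precursors, was at 476, 424 and 455 against 250.4, 292 and 345 CPM (-0.62 ± 0.13). These 3 were lower without overlap.

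The same comparison in islets given C3a used other libraries of the same batches, with the same date-like tags in batch 2. Both comparisons came from 1 fit and share each gene's estimate of spread and the batch term, so their calls are not independent. There, 4246 genes (26.9%) were called. Of the 4005 calls without C3a, 3268 (81.6%) were also called with C3a in the same direction, which is 77.0% of the calls with C3a, and 0 were called in the opposite direction. The sign was the same for 99.3% of the 4005, and the share over all genes tested is not given here. With C3a the log2 fold change was -0.96 for Slc2a2, -0.89 for Glp1r, 1.32 for Gla, 0.93 for Hspa9 and 0.49 for Rpl3, close to the values above for these genes. The receptor list had 26 members called lower with C3a (median -0.19) and the cytosolic ribosomal proteins 68 called higher (median 0.29). Other lists repeated less closely. With C3a the median was 0.14 for collagens and laminins, with 1 member called lower, and 0.001 for integrins and matrix proteases, with 6 called lower. Of the endothelial markers, 4 were called lower with C3a (median -0.34). The difference of the 2 effects, tested as an interaction, passed the threshold for 0 genes in edgeR, with 251 at an unadjusted p under 0.05, and for 0 in DESeq2, with 207; this does not show that the effects were equal. For Slc2a2 the 95% interval of the effect without C3a ran from -1.14 to -0.59, and its interaction was -0.10 ± 0.16.

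**Figure D5:**
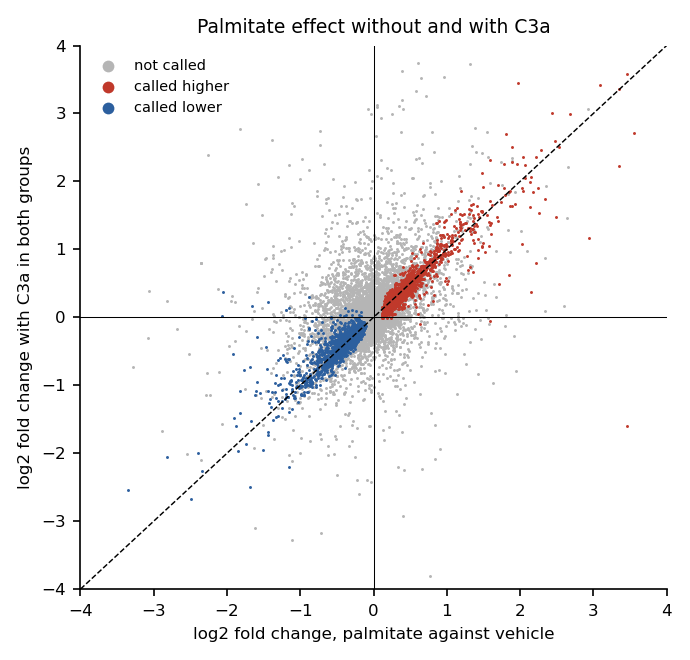
Log2 fold change of palmitate against vehicle without C3a (x axis) and with C3a in both groups (y axis), 1 point a gene, coloured by the call without C3a; the dashed line marks equal values and 36 genes beyond the axes are not drawn. Called genes lie along the line, and 99.3% of them have the same sign on both axes.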

How the data were processed

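Messenger RNA libraries of mouse islets, 12 in all, were read as the estimated counts per transcript that the authors deposited, unnormalized and already whole numbers. Kallisto and DESeq2 are named without roles, with GRCm38 as build, per the submitters' processing notes; which annotation and strand setting were used is not given in the sources used here. Overlapping genes and near-identical copies may therefore share reads. Of 71524 transcripts, 69942 matched GENCODE M21 and were summed to 22141 genes; unmatched ones held 0.581% to 0.677% of counts. No per-sample column was left unused.

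Genes kept by filterByExpr (15794) entered a robust quasi-likelihood model in edgeR 4.0.16 (R 4.3.3) after TMM scaling, whose factors ran from 0.967 to 1.045. The model held the 12 libraries, a term for group and a term for batch (7 residual degrees of freedom, coefficient of variation 11.2%). Each p is two-sided and adjusted over all genes tested. Standard errors follow from the size of the log2 change and the F statistic of its test. On counts simulated over 15539 genes, 88.8% of genes changed 2-fold were called and 50.5% of those changed by 0.5 on the log2 scale. The simulation changed only 98 and 97 genes by these amounts, gave every gene the same spread and held no batch effect. The data differ in all of these, so the shares are not the sensitivity of this comparison.

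Deviations of same-numbered vehicle and palmitate libraries from their group means correlated at 0.762, 0.523 and 0.534, and at 0.119 within batch 2. Differently numbered libraries of batch 2 correlated at 0.479 and 0.404, so the first 3 values do not separate pairing from batch. The labels give same-numbered libraries of batch 2 a shared date-like tag. The numbers were taken to pair the libraries, and a replicate block was the other fit. Chi-squared per degree of freedom between pairs of libraries was 12.5 or more, so no library was a copy of another.

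Named genes were the 12 highest and 12 lowest fold changes and the 8 largest abundance differences per direction (called, protein-coding, at least 5 CPM, same direction in 3 pairs, outside the stress and oxidation lists), up to 6 called members of each list by smallest p, all members of lists of 10 or fewer, and 21 islet genes chosen by name. Genes named for a promoter motif are all list members holding it. Some genes that the rule names, and part of the promoter sequences, are not reported here. The members, lists and rules were chosen with earlier results of these data known. Promoters are RefSeq windows.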

Additional observations from a re-analysis of the deposited data

How the results depend on the processing

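Neither the direction of any named gene nor that of the overall counts reversed under the settings run. Without the batch term 1841 genes were called, 964 higher and 877 lower, and within batch 2 alone 2058, 1152 higher and 906 lower; fewer libraries were in the latter. Leaving out 1 library gave 2760 to 3751 calls, 1531 to 1924 higher and 1229 to 1827 lower. The remaining settings gave 3579 to 4612 calls, from the fit of the 6 libraries alone to the replicate block; they include 4055 with DESeq2 1.42.0, 3958 with its size factors, 4001 with upper quartile scaling, 3681 without a filter, 4094 with at least 1 CPM in 3 libraries and 3592 with limma voom 3.58.1. The replicate block kept 3982 of the 4005 calls with the same sign and ended the calls of Irx1, Cspg4 and Rgs5, which are counted in their lists (edgeR adjusted p = 0.052, 0.059 and 0.067). It moved 16 of 128 counts of list members by over 1.5 times, of which the proteasome and glycolysis counts moved by more than 2 genes; the others include genes called lower in the COPII and COPI list (2 to 4), the zinc list (3 to 5) and mitochondrial ribosomal proteins (0 to 2), and calcium and sodium channels called higher (2 to 4). The fit of the 6 libraries alone moved 15 such counts, limma voom 8, no batch term 77 and batch 2 alone 64. In the last 2 settings the beta cell factors called lower went from 16 to 7 and 8. Receptors called lower went from 27 to 11 and 14. The interaction, run with DESeq2, with its size factors, without a filter, with the block and with each of the 6 libraries left out, gave 0 calls in each. In the simulation, 50.5% of genes with a log2 change of 0.5 were called, but its settings differ from the data and the share missed here is not known. A missing call does not show that a gene was alike in the groups.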

Other observations

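Secreted signals other than the islet hormones were higher more often than lower: of the neuropeptides and growth factors, 18 of 63 members tested were called higher and 6 lower (median log2 fold change 0.24). Adm2, an adrenomedullin-like peptide, was at 4.63, 7.16 and 4.56 against 13.4, 13.1 and 12.4 CPM (1.23 ± 0.16) and Vegfb at 22.2, 32.1 and 31.6 against 32.6, 40.3 and 44.2 CPM (0.45 ± 0.06), while Edn3 (-0.66 ± 0.07) and Egf (-0.64 ± 0.08) were lower. Of the nuclear receptors, 6 of 41 members tested were called higher and 6 lower (median log2 fold change -0.08). Each share was 14.6%, close to the 13.4% higher and 12.0% lower of all genes tested. The immediate early receptors Nr4a1 and Nr4a2 were at 8.52, 14.7 and 9.24 against 28.7, 38.7 and 30.2 CPM (log2 fold change 1.59 ± 0.20, edgeR adjusted p = 4.5e-04) and 12.4, 19.8 and 19.6 against 22.8, 38.5 and 36.5 CPM (log2 fold change 0.91 ± 0.08, edgeR adjusted p = 2.9e-05), higher in every palmitate library than in any vehicle library. The thyroid hormone receptor Thra was lower, at 50.5, 42.7 and 43.9 against 34.9, 32.2 and 30.5 CPM (-0.49 ± 0.06).

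Regulators of RNA and chromatin were called at shares close to or under those of all genes tested, 13.4% higher and 12.0% lower. The shares were 14.3% and 11.1% for SR and hnRNP factors and 4.65% and 11.6% for histone lysine methylation. They were 4.07% and 10.8% for Zfp genes, and 12.5% and 16.7% for clock genes. Of the SR and hnRNP splicing factors, 9 of 63 members tested were called higher and 7 lower (median log2 fold change -0.02), with the neuronal RNA-binding proteins Elavl4 at 34.9, 38.4 and 38.6 against 22.5, 26.6 and 26.4 CPM (log2 fold change -0.57 ± 0.05, edgeR adjusted p = 1.7e-05) and Nova2 at 14.1, 17.2 and 16 against 8.77, 10.8 and 12.6 CPM (-0.55 ± 0.08) both lower without overlap. The counts were 4 on leaving out vehicle replicate 1 and 5 on leaving out palmitate replicate 3 for higher and 4 on leaving out vehicle replicate 3 and 4 on leaving out palmitate replicate 1 for lower members. Of the histone lysine methylation genes, 2 of 43 members tested were called higher and 5 lower (median log2 fold change -0.10), and the lower count was 2 on leaving out vehicle replicate 2, 2 on leaving out vehicle replicate 3, 3 on leaving out palmitate replicate 1 and 2 on leaving out palmitate replicate 3. Of the zinc finger genes with Zfp symbols, 15 of 369 members tested were called higher and 40 lower (median log2 fold change -0.08), and the lower count was 22 on leaving out vehicle replicate 1, 19 on leaving out vehicle replicate 3, 19 on leaving out palmitate replicate 1 and 25 on leaving out palmitate replicate 3. Of the clock genes, 3 of 24 members tested were called higher and 4 lower (median log2 fold change -0.04), with Cry2 at 95.3, 83.7 and 91.6 against 75.6, 68 and 66.6 CPM (-0.36 ± 0.05) and Ciart at 3.43, 4.69 and 3.93 against 8.02, 7.48 and 6.76 CPM (0.88 ± 0.16), and the lower count was 2 on leaving out vehicle replicate 2, 1 on leaving out vehicle replicate 3, 2 on leaving out palmitate replicate 1, 2 on leaving out palmitate replicate 2 and 2 on leaving out palmitate replicate 3.

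The cAMP response element TGACGTCA, on either strand, was in a promoter window of 4.76% of the genes called higher, 2.79% of those called lower and 3.41% of all tested with an entry. These shares describe letters in the windows and no binding was measured.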
